A study of Mus musculus with 6 samples.

Results

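G6pc, Igfbp1, Irs2 and Slc25a25 are described here as genes of the fasting liver. Insulin is known to repress the first 3, and Slc25a25 is grouped with them without that being equally established. They were taken by symbol from a table of 332 genes measured by bulk RNA sequencing of mouse liver, and all 4 passed the filter on low values. They were chosen because they were lower in gigantol livers in that same table, so their difference between the groups is described here and not tested.

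Livers came from male Kunming mice, an outbred stock, aged 6 to 8 weeks and weighing 20 to 28 g. The 3 gigantol mice received gigantol, a plant bibenzyl, at 10 mg/kg by mouth, and the 3 vehicle mice received the solvent alone; all livers were taken 4 h later. The series title calls gigantol a dual PPARα/γ agonist, so the comparison addresses which transcripts differ in liver after a PPAR ligand. The labels carry no feeding state, glucose or insulin value, and the sample titles name PANC1, a human cell line, although the organism and tissue labels and every gene ID are mouse. Values are CPM, reads scaled to library size, from libraries of about 21200000 to 26700000 reads; each member had between 100 and 29972 reads in a library.

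Insulin reaches these genes through its receptor, the IRS adaptors and the kinase AKT, which phosphorylates the transcription factor FOXO1 and moves it out of the nucleus. With little insulin, nuclear FOXO1 keeps G6pc, Igfbp1 and Irs2 active, while glucagon acts through cAMP and the factor CREB on fasting genes such as G6pc. G6pc encodes the enzyme that releases free glucose in the last step of gluconeogenesis. Igfbp1 encodes a secreted protein that binds insulin-like growth factors. Irs2 encodes an adaptor of the insulin receptor itself, and Slc25a25 a calcium-regulated mitochondrial carrier that exchanges ATP-Mg for phosphate.

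The table places G6pc (ENSMUSG00000078650) on chromosome 11 from 101258387 to 101268729 and Igfbp1 (ENSMUSG00000020429) on chromosome 11 from 7147782 to 7152546, both on the plus strand. It places Irs2 (ENSMUSG00000038894) on chromosome 8 from 11034681 to 11058458 and Slc25a25 (ENSMUSG00000026819) on chromosome 2 from 32304499 to 32341457, both on the minus strand. The labels and header do not name the mouse build of these coordinates; the spans equal those of the GRCm38 annotation but lie elsewhere. In that annotation Irs2 and Slc25a25 each overlap 1 gene on the opposite strand and no member overlaps a gene on its own strand.

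The 250 bases before the annotated start are shown for each member because the textbook sites of the insulin and cAMP response lie in such windows. The sequences are RefSeq's on GRCm38.p6, in the direction of transcription. Capitals mark matches, on either strand, to TGTTTTG or TATTTTG (cores of the insulin response element bound by FOXO1), TGTTTAC (a FOXO consensus) and TGACGTCA (the full cAMP response element). Slc25a25 has 3 annotated starts and the third from the 5′ end is shown, at chr2:32424067-32424316 on the minus strand. It is the only window of this gene with a match. The other members have 1 annotated start each, so fewer windows were searched for them. The others are G6pc at chr11:101367466-101367715 and Igfbp1 at chr11:7197537-7197786 on the plus strand, and Irs2 at chr8:11008930-11009179 on the minus strand.
G6pc: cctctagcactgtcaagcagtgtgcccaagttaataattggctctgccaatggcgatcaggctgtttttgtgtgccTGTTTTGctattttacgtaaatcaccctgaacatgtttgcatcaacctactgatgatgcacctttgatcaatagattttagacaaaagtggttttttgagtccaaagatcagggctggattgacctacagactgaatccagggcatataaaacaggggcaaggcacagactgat
Igfbp1: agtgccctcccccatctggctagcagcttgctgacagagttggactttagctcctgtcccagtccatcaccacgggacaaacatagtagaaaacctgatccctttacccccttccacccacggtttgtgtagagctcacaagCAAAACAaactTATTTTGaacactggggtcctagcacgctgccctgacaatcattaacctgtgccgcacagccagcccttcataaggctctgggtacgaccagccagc
Irs2: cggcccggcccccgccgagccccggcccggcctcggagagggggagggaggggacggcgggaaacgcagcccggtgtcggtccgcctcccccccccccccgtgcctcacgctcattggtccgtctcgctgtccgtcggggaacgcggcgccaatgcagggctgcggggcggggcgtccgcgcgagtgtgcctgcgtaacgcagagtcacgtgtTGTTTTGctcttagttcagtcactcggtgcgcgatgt
Slc25a25: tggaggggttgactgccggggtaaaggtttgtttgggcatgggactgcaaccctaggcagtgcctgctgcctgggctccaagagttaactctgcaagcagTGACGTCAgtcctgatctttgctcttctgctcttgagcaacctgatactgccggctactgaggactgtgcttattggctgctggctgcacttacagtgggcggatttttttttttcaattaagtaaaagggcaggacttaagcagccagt

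The core TGTTTTG was found before the starts of the 3 genes repressed by insulin. Its first base lay 174 bases before RefSeq's start in G6pc and 37 bases before that in Irs2. The GRCm38 gene annotation puts their 5′ ends elsewhere, at 101367561 for G6pc and 11008458 for Irs2. The distances, and whether a match falls in the window, depend on the start taken. Igfbp1 held TGTTTTG on the opposite strand from 108 bases before the start, next to a TATTTTG from 97 bases before it. This pair forms the near-palindromic element for which the gene is known. Slc25a25 held neither core in any of its 3 windows, and held TGACGTCA 150 bases before the third start. Among 32851 windows of the same length in the RefSeq table, 5.56% held TGTTTTG, 3.95% TATTTTG, 0.381% both and 1.55% TGACGTCA. TGTTTAC (3.17% of windows) was found in none of the members' windows. The same holds for AGAACA, a core of the glucocorticoid response element (16.1%), and for the PPAR response element, 2 copies of AGGTCA spaced by 1 base (0.0335%). The short core TGACG (17.8%) was found in Slc25a25 only, inside TGACGTCA. A match of letters is not a bound site, and these letters missing from a window says nothing about binding elsewhere. The motifs were chosen after the windows had been read.

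All 4 genes were lower in every gigantol liver than in any vehicle liver. G6pc had 74.6, 294 and 123 CPM in gigantol livers 1, 2 and 3, against 632, 443 and 425 CPM in vehicle livers 1, 2 and 3. The groups did not overlap, and gigantol liver 2 lay closest to the vehicle livers. The mean was 164 ± 115 CPM with gigantol and 500 ± 115 CPM with vehicle (SD, n = 3 each), so the gigantol mean was 32.7% of the vehicle mean.

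Igfbp1 had 69.4, 109 and 195 CPM in gigantol livers 1, 2 and 3, against 1122, 431 and 309 CPM in vehicle livers 1, 2 and 3. Over all 6 livers the widest spread of the 4 genes was here (16.2-fold), with vehicle liver 1 far above all others and gigantol liver 3 nearest to the vehicle range. Among the gigantol livers alone Igfbp1 varied 2.80-fold, less than G6pc at 3.93-fold and Irs2 at 4.22-fold. Means were 124 ± 63.9 CPM with gigantol and 621 ± 439 CPM with vehicle, a gigantol mean of 20.0% of the vehicle mean. Without vehicle liver 1 the vehicle mean was 370 CPM.

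Irs2 had 4.71, 19.9 and 10.5 CPM in gigantol livers 1, 2 and 3, against 46.4, 28.6 and 31.5 CPM in vehicle livers 1, 2 and 3. Its livers stood in the same order within the gigantol group as those of G6pc, and vehicle liver 1 was again the highest. Means were 11.7 ± 7.64 CPM with gigantol and 35.5 ± 9.58 CPM with vehicle, which puts the gigantol mean at 32.9% of the vehicle mean. Without gigantol liver 2 the gigantol means of Irs2 and G6pc were 7.60 and 98.7 CPM.

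Slc25a25 had 63.2, 116 and 81.8 CPM in gigantol livers 1, 2 and 3, against 126, 221 and 226 CPM in vehicle livers 1, 2 and 3. Here the groups almost touched: the lowest vehicle liver was 1.08 times the highest gigantol liver, where this gap was 1.45 times for G6pc, 1.59 for Igfbp1 and 1.44 for Irs2. Means were 87.2 ± 27.0 CPM with gigantol and 191 ± 56.7 CPM with vehicle, a gigantol mean of 45.6% of the vehicle mean. Vehicle liver 1, the highest vehicle liver for the other 3 genes, was the lowest one for Slc25a25.

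**Figure D1:**
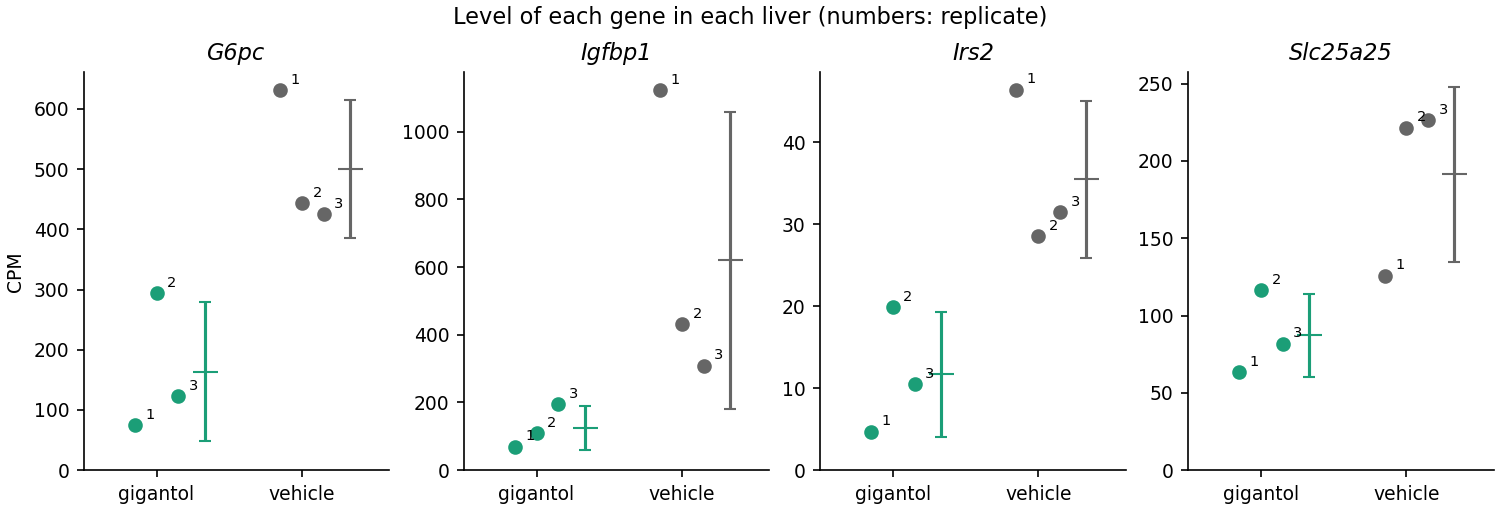
CPM (linear axes from 0) of the 4 genes in each liver, with the replicate number beside each point and the mean ± SD of 3 livers as a bar to the right of the points. Every gigantol point lies below every vehicle point in all 4 panels, with the smallest gap for Slc25a25, between 116 and 126 CPM.

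All 4 genes fell in the authors' deposited table, at log2 fold changes of -1.61 for G6pc (FDR 0.0398), -2.32 for Igfbp1 (0.000923), -1.60 for Irs2 (0.0473) and -1.13 for Slc25a25 (0.0423). This is 4 of 4, where 15.7% of all rows fell by that FDR and 48.5% of all rows had every gigantol liver below every vehicle liver. These shares are those of a table that was itself selected on the contrast, and nothing is read from the comparison. The FDR was adjusted over 13192 genes, of which at least 122 (0.925%) passed. The median log2 fold change in the authors' deposited table was -1.60 for the members and -1.15 over all 332 rows, or -1.40 over the 213 rows listed as lower. On log2(CPM + 1), limma gave changes of -1.81 ± 0.59 (SE) for G6pc, -2.21 ± 0.62 for Igfbp1, -1.69 ± 0.53 for Irs2 and -1.12 ± 0.51 for Slc25a25, and the first 3 of these were called at an adjusted p under 0.05, where limma called 35.3% of the 201 tested genes as lower. Leaving out a library gave 0 limma calls among the members without gigantol replicate 1, 1 each without gigantol replicate 3, vehicle replicate 2 and vehicle replicate 3, 4 without gigantol replicate 2 and 3 without vehicle replicate 1, where Slc25a25 was called and Irs2 was not. In whole liver, fewer cells of a type and less RNA per cell cannot be told apart.

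The genes did not all move together from liver to liver. Gigantol liver 1 had the lowest level of all 4 genes. Gigantol liver 2 was the highest gigantol liver for G6pc, Irs2 and Slc25a25, whereas gigantol liver 3 was the highest for Igfbp1. Of the 201 genes of the table with at least 1 CPM in at least 3 livers, 72 (35.8%) also had gigantol liver 1 lowest among the gigantol livers, 80 (39.8%) had gigantol liver 2 highest and 49 (24.4%) had both. Among the vehicle livers, liver 1 was highest for G6pc, Igfbp1 and Irs2 and lowest for Slc25a25, as it was for 85 (42.3%) and 93 (46.3%) of the 201 genes.

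**Figure D2:**
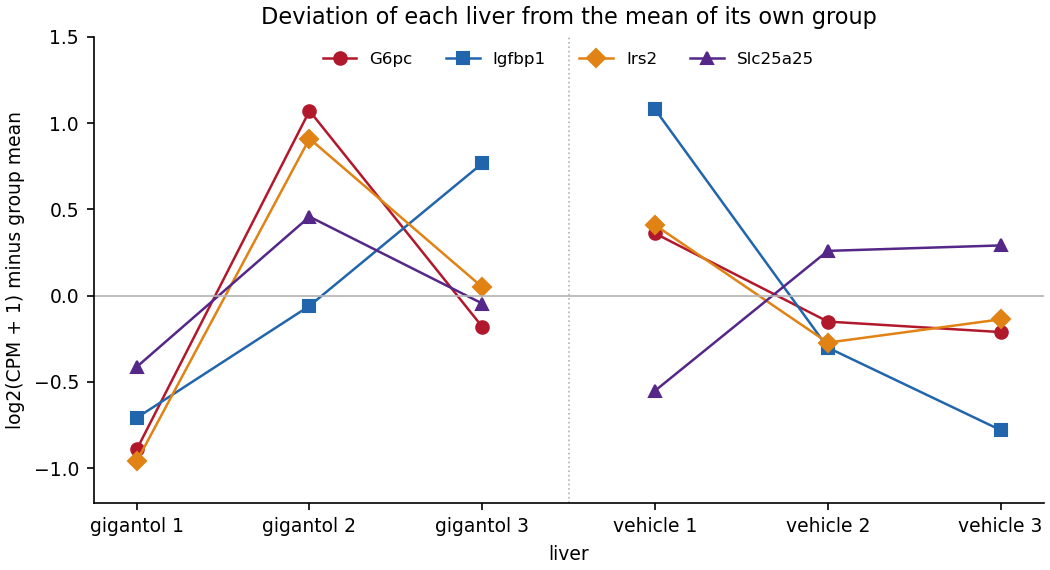
Deviation of log2(CPM + 1) in each liver from the mean of its own group, for the 4 genes; lines join the livers of a group to guide the eye only. G6pc and Irs2 lie almost on each other, Igfbp1 is highest in gigantol liver 3 and vehicle liver 1, and Slc25a25 is lowest in vehicle liver 1.

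G6pc and Irs2 were the closest pair. G6pc varied 8.46-fold and Irs2 9.86-fold between the lowest and highest of the 6 livers, yet the ratio of their CPM stayed between 11.7 and 15.9 in gigantol livers and between 13.5 and 15.5 in vehicle livers, a 1.35-fold range. These ratios are not per length, so they compare livers and not the levels of the 2 genes. The log2 difference between G6pc and Irs2 had an SD of 0.16 over the 6 livers, where counting error alone would give about 0.09. Of the 200 other genes that passed the filter, Irs2 was the one whose difference from G6pc varied least. The median over those genes was 1.09 and the next smallest was 0.32. This spread takes in the difference between the groups. G6pc and Irs2 were both chosen for being lower, whereas the median takes in rows listed as higher. Irs2 also ranked first in each run that left out 1 liver, with a pseudocount of 0.25 CPM and with group means removed, but other genes then came close. With the pseudocount of 0.25 CPM Irs2 was at 0.16 and Cd300c2 at 0.18. With group means removed Irs2 was at 0.13 and Hamp at 0.17, where the median over genes was 0.70. The pair was singled out after its values were seen, and no test was made of it.

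The other pairs were looser. The ratio of G6pc to Igfbp1 ran from 0.631 to 2.68 in gigantol livers and from 0.563 to 1.37 in vehicle livers. Its SD was 0.82 on the log2 scale. By this spread, on log2(CPM + 1), Irs2 ranked 6 and G6pc 10 of 200 genes seen from Igfbp1. The median over those genes was 1.30. This spread takes in the group difference that chose the members, so these ranks do not measure likeness within groups. With group means removed, G6pc and Igfbp1 were at 0.71, where the median over genes seen from G6pc was 0.70. The ratio of G6pc to Slc25a25 ran from 1.18 to 2.52 in gigantol livers and from 1.88 to 5.02 in vehicle livers, with an SD of 0.72. Igfbp1 and Slc25a25 were the loosest pair: their ratio varied 9.49-fold, with an SD of 1.18, and it was highest in vehicle liver 1, where Igfbp1 peaked and Slc25a25 was low. Over 6 livers that fall into 2 groups chosen to differ, no correlation is given.

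**Figure D3:**
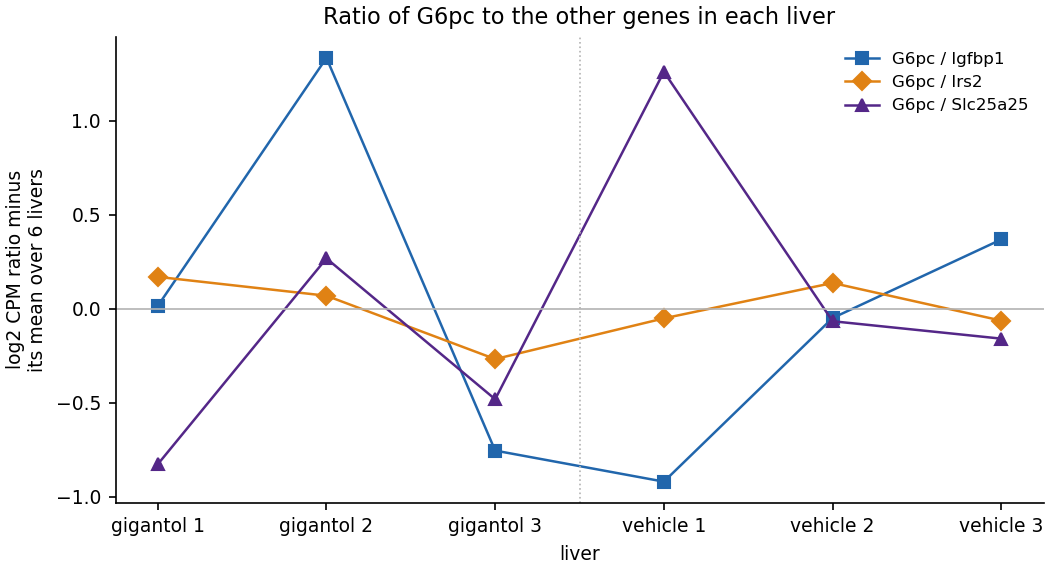
Log2 of the CPM ratio of G6pc to each of the other 3 genes in each liver, minus its own mean over the 6 livers; lines guide the eye only. The ratio to Irs2 stays close to 0 in all 6 livers, the ratio to Igfbp1 swings most between gigantol liver 2 and vehicle liver 1, and the ratio to Slc25a25 is highest in vehicle liver 1.

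Other fasting genes of the table were few. A list of 26 gluconeogenesis and fasting genes had 5 rows, the 4 members and Trib3, an AKT-binding pseudokinase raised by nutrient stress. Trib3 had 8.80, 7.56 and 12.03 CPM in gigantol livers 1, 2 and 3, against 21.3, 17.4 and 22.9 CPM in vehicle livers 1, 2 and 3, and fell by the authors' deposited table (log2 fold change -1.11, FDR 0.00135). Its groups did not overlap, and it was lowest in gigantol liver 2, where no member was lowest. The other genes of that list, among them Pck1, Ppargc1a and Fbp1, were not rows. The table has no row with an authors' p above 0.0499 or a log2 fold change smaller than 1.00 in size. It therefore gives no values for these genes, and the rows do not stand for the whole list.

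Of a list of 23 genes drawn up for the fed state and insulin induction, 4 were rows, of which Ppp1r3b and Ppp1r3c rose and Ppp1r3g and Txnip fell by the authors' deposited table. The list's name does not cover all that is known of the 2 that fell. In mouse liver Ppp1r3g is known to rise in fasting, and Txnip is known to be raised by glucose and lowered by insulin. Known responses are given for these 2 only, and both stay in the count. Ppp1r3c, Ppp1r3b and Ppp1r3g, subunits that recruit protein phosphatase 1 to glycogen particles, had their gigantol livers in the reverse order of G6pc and Irs2, an order found in 38 (18.9%) of the 201 genes, these 3 included. Ppp1r3c had 146, 26.5 and 68.5 CPM in gigantol livers 1, 2 and 3, against 15.8, 17.2 and 15.5 CPM in vehicle livers 1, 2 and 3. Ppp1r3b had 312, 63.4 and 170 CPM in gigantol livers, against 54.2, 58.9 and 56.6 CPM in vehicle livers. Ppp1r3g had 18.0, 6.81 and 12.5 CPM in gigantol livers, against 74.4, 43.0 and 54.7 CPM in vehicle livers. The gigantol liver with the least G6pc and Irs2 had the most of all 3 subunits, 2 of which were higher and 1 lower than in vehicle livers. Txnip, which limits glucose uptake, was at 73.2 ± 10.8 CPM with gigantol and 155 ± 57.8 CPM with vehicle (SD, n = 3 each). The authors' deposited table gave FDRs of 2.37e-06 for Ppp1r3g, 0.000702 for Ppp1r3c, 0.0261 for Txnip and 0.0347 for Ppp1r3b.

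Of 22 genes of insulin receptor signalling, Irs2, Trib3 and Socs2 were rows and all 3 fell by the authors' deposited table. Irs2 is a member, chosen for being lower. Over all 332 rows 15.7% fell, and nothing is read from this count. Socs2, a feedback inhibitor of cytokine and growth hormone receptors, had 7.67, 13.3 and 9.43 CPM in gigantol livers 1, 2 and 3, against 18.0, 41.4 and 46.2 CPM in vehicle livers 1, 2 and 3 (FDR 0.000694 there). The groups did not overlap, and its order was that of Slc25a25 in both groups. Of the 201 genes, 49 (24.4%) had that order of gigantol livers and 52 (25.9%) that order of vehicle livers. Igfbp1 was the one row among 13 genes of the IGF and IGF-binding protein list.

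Glucocorticoids raise G6pc and Igfbp1 in fasting. Of 17 genes listed as driven by them, 5 were rows, 3 with a lower and 2 with a higher gigantol mean. Sgk1 alone passed the FDR of the authors' deposited table, and it fell. Sgk1, a kinase induced by glucocorticoids, had 20.5, 28.3 and 21.4 CPM in gigantol livers 1, 2 and 3, against 59.5, 47.1 and 48.4 CPM in vehicle livers 1, 2 and 3 (log2 fold change -1.14, FDR 3.7e-05). The groups did not overlap, and the livers stood in the order of Irs2 in both groups. Of the 201 genes, 49 (24.4%) had that order of gigantol livers and 45 (22.4%) that order of vehicle livers. Values without a call were those of the stress regulator Ddit4 (17.5 ± 12.8 CPM with gigantol and 46.1 ± 5.95 CPM with vehicle, FDR 0.159 in the authors' deposited table), the phosphatase Dusp1 (20.6 ± 11.4 CPM with gigantol and 43.1 ± 9.31 CPM with vehicle, FDR 0.317), the cell cycle inhibitor Cdkn1a (20.8 ± 9.39 CPM with gigantol and 8.14 ± 5.09 CPM with vehicle, FDR 0.210) and the stress-induced Gadd45b (9.85 ± 3.21 CPM with gigantol and 4.86 ± 0.603 CPM with vehicle, FDR 0.0850). Dusp1 and the immediate early transcription factor Egr1 (6.56 ± 0.753 CPM with gigantol and 15.5 ± 10.3 CPM with vehicle, FDR 0.190 in the authors' deposited table) were the rows among 17 genes of the cAMP and CREB response, and neither passed. Among 17 clock genes Arntl was the one row and did not pass (2.64 ± 1.02 CPM with gigantol and 1.27 ± 0.157 CPM with vehicle, FDR 0.304 in the authors' deposited table).

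**Figure D4:**
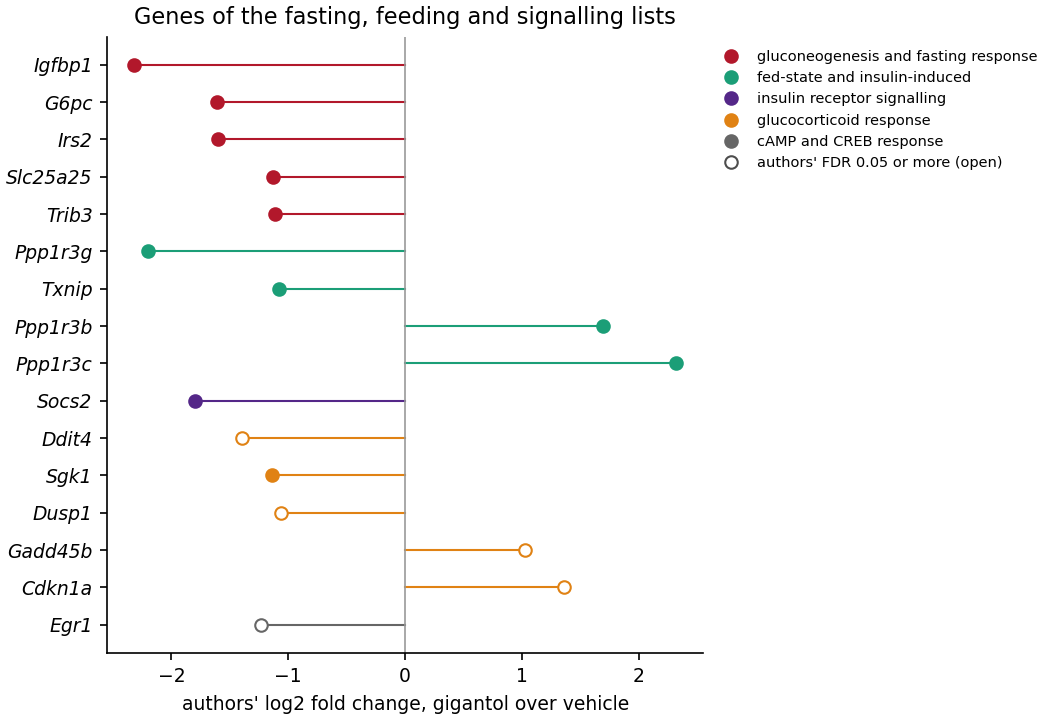
Log2 fold change, gigantol over vehicle, in the authors' deposited table for each gene of 5 lists that is a row of it; filled points have an FDR under 0.05 there. The fasting list lies on the lower side, from -2.32 for Igfbp1 to -1.11 for Trib3. All its rows but Trib3 are the members, which were chosen for being lower, so its side was fixed in advance. The fed-state list runs from -2.20 for Ppp1r3g to 2.32 for Ppp1r3c. In that list Ppp1r3g is known to rise in fasting, and Txnip to be raised by glucose and lowered by insulin.

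The pathway annotation deposited with the table covered 132 rows and 2 of the members, G6pc and Irs2, which shared 5 pathways. In the insulin signalling pathway of that annotation were 6 rows, of which 4 fell (G6pc, Irs2, Socs2 and Prkar2b) and 2 rose (Ppp1r3b and Ppp1r3c) by the authors' deposited table. Prkar2b, a regulatory subunit of the cAMP-dependent kinase, was at 0.530 ± 0.215 CPM with gigantol and 1.70 ± 0.355 CPM with vehicle (FDR 0.0468 in that table). In the FoxO signalling pathway were 6 rows, of which 4 fell (G6pc, Irs2, Sgk1 and the death ligand Tnfsf10) and 2, Gadd45b and Cdkn1a, did not pass. Both pathway counts include G6pc and Irs2, which were chosen for being lower. Over all 332 rows 15.7% fell, and nothing is read from these counts.

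The 8 genes nearest to the mean pattern of the members within the groups were taken by the root mean square distance of log2(CPM + 1) deviations over the 6 livers. They were Cd300c2 (0.11), Hamp (0.12), Gm44231 (0.19), Arntl (0.21), Stap1 (0.24), Orm3 (0.24), Itgal (0.24) and BC048644 (0.27), where the median of 197 genes was 0.55 and a gene with no spread within the groups would lie at 0.43. The members' own distances from their mean were 0.18 for Irs2, 0.24 for G6pc, 0.47 for Slc25a25 and 0.54 for Igfbp1. Of the 8 genes, 3 had lower and 5 had higher gigantol means, so this likeness within groups did not follow the direction of the group difference. Cd300c2, a CD300 family receptor of myeloid cells, had 1.04, 3.52 and 1.91 CPM in gigantol livers 1, 2 and 3, against 8.69, 6.45 and 5.59 CPM in vehicle livers 1, 2 and 3. Hamp, which encodes the iron hormone hepcidin, had 183, 514 and 296 CPM in gigantol livers 1, 2 and 3, against 122, 88.7 and 96.4 CPM in vehicle livers 1, 2 and 3. It shared the order of the gigantol livers with G6pc and Irs2 while its group difference ran the other way. With 1 liver left out, 3, 2 and 4 of the 8 were named again without gigantol livers 1, 2 and 3, and 4, 7 and 7 without vehicle livers 1, 2 and 3; Cd300c2 was named in all 6 runs and Hamp in 5.

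Of 9 erythroid and platelet markers 8 were rows, all with a lower gigantol mean, and 2 of them, Hba-a2 and Ppbp, fell by the authors' deposited table (FDR 0.000966 and 0.000293). The groups overlapped for 4 of the 8. Their summed level was 352, 634 and 574 CPM in gigantol livers 1, 2 and 3, against 566, 1918 and 1116 CPM in vehicle livers 1, 2 and 3, so these sums overlapped too, and none of the 8 was at 0 in any liver. Gigantol liver 1 and vehicle liver 1 were the lowest of their groups for this sum, as they were for Slc25a25. Of the 201 genes that passed the filter, 72 (35.8%) had gigantol liver 1 lowest in its group. Vehicle liver 1 was lowest in its group for 93 (46.3%). Vehicle liver 2 was the highest for the sum and vehicle liver 3 for Slc25a25. Of the other markers, 2 of 12 for hepatocytes (Hamp and C8b, both higher with gigantol), 1 of 12 for Kupffer and myeloid cells, 3 of 10 for lymphocytes and 2 of 8 for stellate cells (all of these lower with gigantol) were rows, and 0 for endothelial cells, cholangiocytes, or adipocytes and pancreas. The part of other cell types in the members' levels was not tested.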

How the data were processed

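Per the labels' protocols, ribosomal RNA was removed from total liver RNA and strand-specific libraries were built, 3 per group, all with the same batch label. Per the submitters' processing notes, the tools were fastp, HISAT2 and DESeq2 (1.16.1), whose roles are not stated, and the build was GRCh38, a human one. The deposited table holds CPM, a unit read from its values, beside log2 fold changes, p-values and FDRs of the authors' own comparison, per the file headers. Those fold changes equal the log2 ratio of the CPM means within 0.00429 for the members. No row has a p above 0.0499 or a log2 fold change closer to 0 than 1.00. Depth was worked out from the CPM step of 1 read; all values up to 200 reads were whole within 0.1 reads, and counts so derived cover counting error only.

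limma 3.58.1 in R 4.3.3 was run on log2(CPM + 1), two-sided, keeping genes that reached 1 CPM in 3 or more libraries, with trended and robust variances and Benjamini-Hochberg adjustment over the 201 genes tested. On that scale the changes of low genes come out too small. Since the rows were selected on the same libraries, these calls are circular and serve as description. The fit was tested on simulated data with known changes, in which every gene had the same relative spread beyond counting error. That spread was not fitted to these livers, so the test checks the code and not how limma does here. "Rose" and "fell" refer to an FDR under 0.05 in the authors' deposited table. With 3 against 3 livers an exact two-sided permutation test cannot go below 0.1. Each liver came from its own mouse, and livers of a group differed beyond counting error (chi-square of 33.0 to 256 per gene). The least was between vehicle livers 2 and 3, at 33.0. Vehicle liver 1 differed from vehicle livers 2 and 3 at 256 and 223. Gigantol livers differed from each other at 64.1 to 182. Named were the 4 members, every listed pathway gene that is a row, and the 8 genes nearest to the members; any other named gene was chosen after its values were seen. The members and lists were chosen with earlier results of these data known. The alternatives tried were another pseudocount, no filter, each library left out, a replicate block, another scaling and another measure of likeness.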

Additional observations from a re-analysis of the deposited data

How the results depend on the processing

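Depth was at least 100 reads per member and library. The number of genes limma called was 111 with all libraries, 169 of 332 with no filter on low values, and 32 to 136 with 1 library left out (57 and 60 without gigantol replicates 1 and 3, 32 and 35 without vehicle replicates 2 and 3). The 3 members called became 0 to 4 with 1 library left out and numbered 3 with the other pseudocount, no filter and the replicate block. Log2 changes kept their sign in all runs, from -2.35 to -1.37 for G6pc, -2.60 to -1.67 for Igfbp1, -2.14 to -1.21 for Irs2 and -1.40 to -0.91 for Slc25a25 with 1 library left out. Dividing each library by the median of the table's genes left 1 of the 4 members with groups that did not overlap; 64.2% of the rows are listed as lower with gigantol, so that scaling takes out part of the contrast by construction. Leaving out a library cannot make groups that were apart overlap, so that count was not read there. Of the 8 genes nearest to the members, 2 to 7 were named again with 1 library left out and at least 6 under the other alternatives. With the replicate number as a replicate block, limma called 128 genes and the same number of members, 3. Deviations of same-numbered livers correlated across genes at 0.13, 0.15 and -0.10, so the numbers were not taken to pair the livers. Planned count tests on reads worked out from the CPM were not run, because a separate check did not accept the vehicle values as whole reads. The rank of Irs2 beside G6pc was examined under alternatives chosen after seeing the data.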

Other observations

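Other genes kept step with single members over the 6 livers. After Irs2, the gene whose log2(CPM + 1) difference from G6pc varied least was Cyp7a1, the rate-limiting enzyme of bile acid synthesis, at an SD of 0.32. This place depended on the setting: it went to Cd300c2 with a pseudocount of 0.25 CPM, to Hamp with group means removed, to Marco without gigantol replicate 1 and to Myc without vehicle replicate 1. Cyp7a1 had 39.9, 140 and 36.5 CPM in gigantol livers 1, 2 and 3, against 202, 183 and 159 CPM in vehicle livers 1, 2 and 3, and the authors' deposited table gave it an FDR of 0.222. Like G6pc it was highest in gigantol liver 2 and in vehicle liver 1. For Slc25a25 the gene that varied least was Wsb1, a subunit of a ubiquitin ligase, at an SD of 0.12 where the median over 200 genes was 0.78. Wsb1 had 17.8, 37.8 and 27.9 CPM in gigantol livers 1, 2 and 3, against 34.9, 73.6 and 72.2 CPM in vehicle livers 1, 2 and 3, and the authors' deposited table gave it an FDR of 0.150. It shared the low vehicle liver 1 with Slc25a25. By this spread G6pc ranked 94 of 200 genes seen from Slc25a25, and Slc25a25 ranked 21 of 200 seen from G6pc. The spread over the 6 livers takes in the group difference that chose the members. Cyp7a1 and Wsb1 were picked for these values, and no test was made.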
